A study of Homo sapiens with 10 samples.

Results

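The receptor MET, its ligand HGF and the proteins that bind the activated receptor were followed across 10 Affymetrix hgu133a arrays of the human melanoma line MDA-MB-435. The genes were MET, HGF, GRB2, SHC1, SOS1, GAB1, GAB2, PTPN11, CRKL and CBL, of 11963 genes that the array names by a single symbol. Every probe set whose platform annotation gave 1 of these 10 symbols and no other was taken, which made 25 probe sets of the 22215 on the array other than controls. Of these, 12 passed the filter on low values, from 7 of the genes. The arrays formed 5 groups of 2. They held MDA-MB-435 cells transduced with ITGB4 (integrin beta 4), untreated MDA-MB-435 cells, and MDA-MB-435 cells given HGF for 1 h, for 6 h or for 24 h. The study describes the duplicates as biological. The cells of the ITGB4 group carry a stable transgene, their descriptions also contain the word Mock, and no mock-transduced cells were among the groups, so that effects of transduction and of ITGB4 cannot be told apart. All comparisons with untreated cells used the same 2 untreated arrays.

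MET is a receptor tyrosine kinase that is known for its part in motility, invasion and survival of epithelial and melanocytic cells. HGF, which is made by mesenchymal cells, makes MET dimerize and phosphorylate a docking site in its tail. GRB2 and SHC1 are adaptors that bind there and bring SOS1, the exchange factor that loads RAS with GTP. GAB1 and GAB2 are scaffold proteins that carry the phosphatase PTPN11 (also called SHP2) and phosphatidylinositol 3-kinase to the receptor. CRKL is an adaptor that links the scaffolds to RAP1, and CBL is the ubiquitin ligase that marks MET for degradation. These proteins are regulated mainly by phosphorylation and binding, which an expression array does not measure.

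The values were the authors' RMA values, which are on the log2 scale and normalised between arrays, with array medians from 6.81 to 6.88. Each difference is a log2 difference from limma with its standard error (SE), and called means a Benjamini-Hochberg adjusted p under 0.05 over all kept probe sets of that comparison. Each array reads RNA of a whole culture, so that fewer cells with a transcript and less of it per cell cannot be told apart. Of the melanocyte markers listed, 9 of 9 measured were kept (median level 11.13), against 2 of 10 of epithelium (5.68), 2 of 6 of fibroblasts, 1 of 4 of endothelium and 0 of 2 of leukocytes. ITGB4 probe set 204990_s_at read 13.23 and 12.96 in ITGB4-transduced cells, and 6.70 and 6.58 in untreated cells. Between the duplicates of a group, the kept probe sets differed with an SD of 0.28 in ITGB4-transduced cells, 0.20 in untreated cells, and 0.28, 0.18 and 0.26 at 1, 6 and 24 h of HGF.

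Against untreated cells, the only call among these genes was a PTPN11 probe set, which was 1.58-fold lower after 1 h of HGF. The other calls lay between time points, where 18.3% (6 h against 1 h) and 19.5% (24 h against 6 h) of all kept probe sets were called. At 6 h against 1 h, 1 probe set of PTPN11 rose and 1 of SHC1 fell. At 24 h against 6 h the only probe set of GAB2 and 1 of SHC1 rose and 1 of MET fell, and these differences were of 0.44 to 0.70 in size. When the kept probe sets of a gene were averaged, the calls of PTPN11, SHC1 and MET were lost. That of GAB2 could not be tested in this way, since averaging leaves the value of its only probe set unchanged. Over the 5 groups, the 3 kept probe sets of PTPN11 were called for any difference in an F-test, and 0 of the other members' probe sets were. At an unadjusted p under 0.05 there were 8 of the 12 probe sets. The share of all kept probe sets at that unadjusted threshold is not given, so that counts at it, here and below, have no background. With the replicate number as a further term of the model, the kept probe sets of MET were called as well (adjusted p 0.0107, 0.0458 and 0.0147 in the F-test). Among all kept probe sets, 23.5% were called in the F-test without that term. The count of 3 became 1 without replicate 2 at 6 h and 5 without replicate 1 at 24 h.

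**Figure D1:**
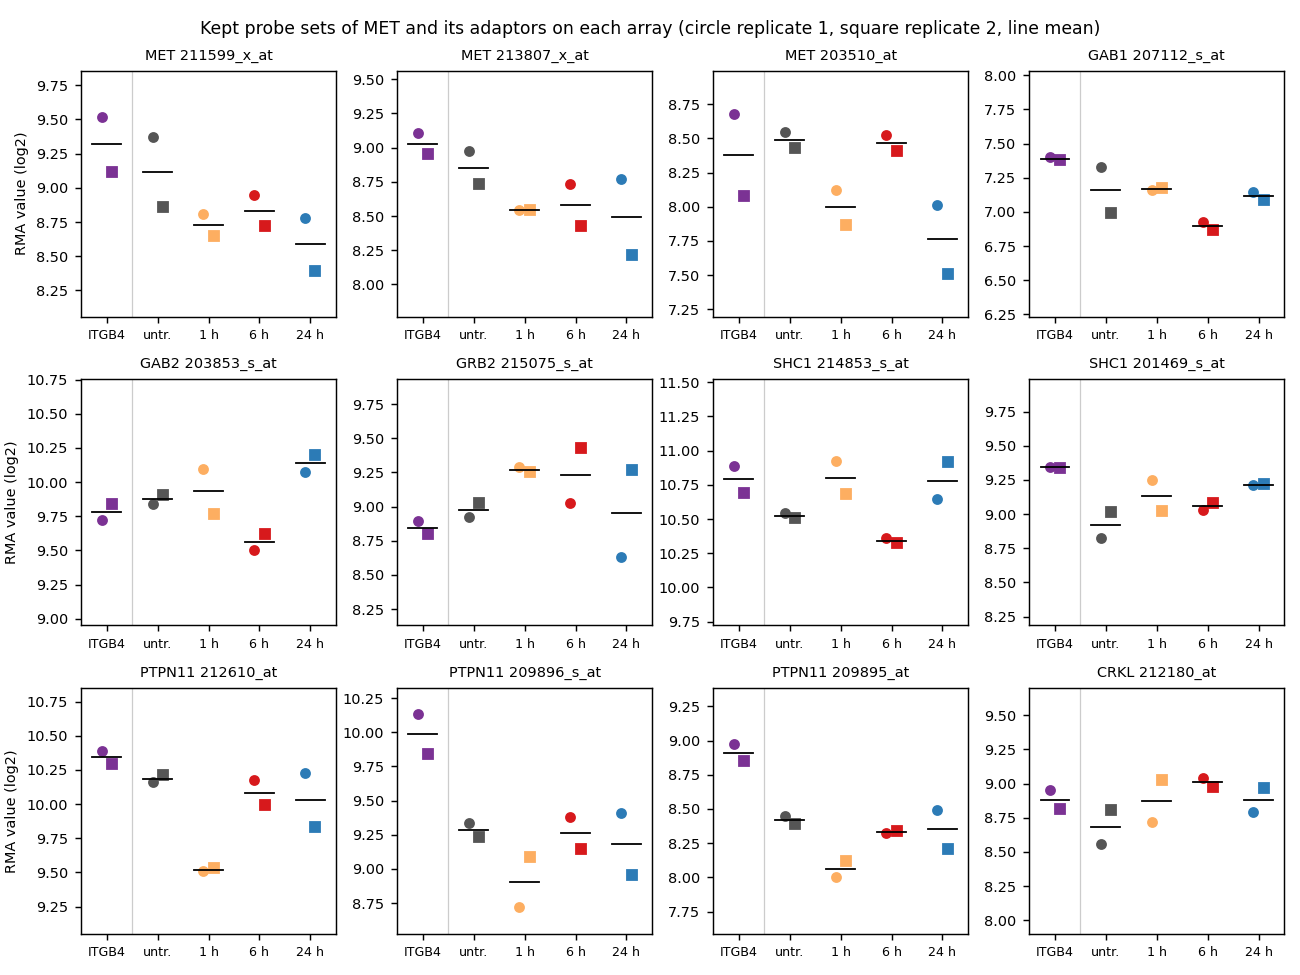
RMA values (log2, vertical axes) of the 12 kept probe sets on each array, with ITGB4-transduced cells left of untreated cells (untr.) and then the HGF time points. Circles are replicate 1, squares replicate 2 and lines group means; each panel has its own range. Both 1 h arrays of PTPN11 212610_at (9.51 and 9.53) lie below its other 8 arrays.

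Of the called genes, MET, GAB2 and SHC1 have an entry in the RefSeq table of promoters, and the 250 bases before their gene starts are shown because these genes differed in direction between 6 and 24 h. The windows are chr7:116671946-116672195 on the plus strand for MET, chr11:78417821-78418070 on the minus strand for GAB2 and chr1:154974377-154974626 on the minus strand for SHC1, in GRCh38.p14. In capitals are matches, on either strand, to the GC box GGGCGG, which SP1 family proteins bind, and to the ETS site CCGGAAGT.
MET: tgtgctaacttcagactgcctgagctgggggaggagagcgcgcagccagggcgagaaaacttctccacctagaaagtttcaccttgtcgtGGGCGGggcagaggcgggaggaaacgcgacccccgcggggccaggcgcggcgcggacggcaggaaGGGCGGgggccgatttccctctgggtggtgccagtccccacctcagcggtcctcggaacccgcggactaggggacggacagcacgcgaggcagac
GAB2: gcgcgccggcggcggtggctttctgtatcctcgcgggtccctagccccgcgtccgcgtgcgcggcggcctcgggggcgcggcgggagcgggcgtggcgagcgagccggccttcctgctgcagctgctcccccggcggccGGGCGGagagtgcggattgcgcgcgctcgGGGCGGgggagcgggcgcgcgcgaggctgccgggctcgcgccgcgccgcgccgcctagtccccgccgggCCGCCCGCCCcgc
SHC1: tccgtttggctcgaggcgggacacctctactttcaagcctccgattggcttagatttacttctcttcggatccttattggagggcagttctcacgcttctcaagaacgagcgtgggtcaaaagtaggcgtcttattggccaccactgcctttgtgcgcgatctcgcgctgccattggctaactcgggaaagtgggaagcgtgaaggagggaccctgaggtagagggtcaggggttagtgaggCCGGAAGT
MET had 2 GC boxes, and GAB2 had 4, of which the last 2 overlap each other and run on the opposite strand. SHC1 had 0 GC boxes, and its ETS match ends at the last base of the window. A GC box was present in 42.6% of all 35116 promoters of the table and the ETS letters in 3.42%. The letters of the AP-1 site (TGANTCA), the cAMP response element (TGACGTCA), the E-box (CACGTG) and the Egr site (GCGNGGGCG) were not in these 3 windows, and were in 6.57%, 1.65%, 6.34% and 8.41% of all promoters. Such matches describe the letters only.

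The ligand was at low levels throughout. HGF is annotated on chromosome 7 (81699010 to 81770047, minus strand) and has 5 probe sets, of which 0 passed the filter. Their means over all arrays lay between 2.83 and 6.48, where the lowest second-highest value of a kept probe set was 7.31. Probe set 209961_s_at, at the upper end of that range, read 6.27 and 6.64 in ITGB4-transduced cells, 6.43 in both untreated arrays, 6.52 and 6.65 at 1 h, 6.38 and 6.48 at 6 h, and 6.67 and 6.33 at 24 h. At 1 h all 5 had both arrays above both untreated arrays, by 0.07 to 0.24. In limma without the filter their adjusted p ran from 0.394 to 0.770. Such separation upward occurred at 1 h in 34% of all kept probe sets, to which these do not belong. The 5 are probe sets of 1 gene on the same arrays. Whether HGF transcripts changed in the cells cannot be told at these values near background.

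MET, the receptor (chromosome 7, 116672196 to 116798377), had 3 kept probe sets of 4. Probe set 211599_x_at read 9.52 and 9.12 in ITGB4-transduced cells, and 9.38 and 8.86 in untreated cells. With HGF it read 8.81 and 8.64 at 1 h, 8.94 and 8.72 at 6 h, and 8.78 and 8.39 at 24 h. From lowest to highest, the group means were in the order 24 h, 1 h, 6 h, untreated and ITGB4, and the arrays of each pair of neighbours in that order overlapped. Both arrays of 1 h and of 24 h were below both untreated arrays, by 0.39 (SE 0.20, adjusted p 0.242) and 0.53 (SE 0.20, adjusted p 0.403), and neither difference passed the test. Probe set 213807_x_at gave the same order, with 1 h and 6 h close together (8.54 and 8.58), with differences from untreated cells between -0.36 and 0.18. The suffix of both marks probe sets whose probes can also match other transcripts.

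Probe set 203510_at of MET gave the call of MET. It read 8.01 and 7.51 at 24 h, against 8.52 and 8.41 at 6 h, so that the arrays did not overlap. The difference was -0.70 (SE 0.21, 95% interval -1.16 to -0.24, adjusted p 0.0384), or 1.63-fold. It read 8.13 and 7.87 at 1 h and 8.68 and 8.08 in ITGB4-transduced cells, while the untreated arrays, at 8.55 and 8.43, were close to those at 6 h. At 24 h it was thus also below both untreated arrays, by 0.73 (95% interval -1.19 to -0.27, adjusted p 0.345), in a comparison in which 0% of all kept probe sets were called. Between 24 h and 6 h the other probe sets of MET differed by -0.24 (adjusted p 0.428) and -0.08 (adjusted p 0.786), and their arrays overlapped. With the mean of the 3 probe sets in place of each, the MET difference between 24 and 6 h was -0.34 (adjusted p 0.216). With the replicate number as a further term of the model, 203510_at stayed called (adjusted p 0.00858). The call was lost without either untreated array (adjusted p 0.0539 each), without replicate 1 (0.168) or replicate 2 (0.130) at 6 h, and without replicate 2 at 24 h, where the difference was -0.45 (adjusted p 0.214). Over the 10 arrays, 211599_x_at correlated at r = 0.93 with 213807_x_at and at r = 0.78 with 203510_at, and 213807_x_at with 203510_at at r = 0.68, given as a description since the arrays share groups. The fourth probe set, 213816_s_at, was under the filter, with group means from 5.81 at 1 h to 6.59 in ITGB4-transduced cells.

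The genes whose profile over the 10 arrays was most like that of 211599_x_at, among 6369 other genes, were PLEKHF2 (r = 0.95), HSP90B1 (0.95), CPNE3 (0.93), SOS2 (0.93) and CDC42EP3 (0.92). HSP90B1 is the chaperone of the endoplasmic reticulum, and SOS2 is the paralog of SOS1. Among the genes compared, 8 had an r over 0.9. The genes named were chosen by this r, so that the r of their group means with those of 211599_x_at (0.95 to 0.97) is no separate result. SOS2 read 8.31 and 7.45 in ITGB4-transduced cells, 7.96 and 7.55 in untreated cells, 7.26 and 7.09 at 1 h, 7.32 and 7.38 at 6 h, and 7.45 and 7.00 at 24 h. In SOS2 replicate 1 was above replicate 2 in every group except 6 h of HGF. In MET 211599_x_at, PLEKHF2, HSP90B1 and CPNE3 it was so in every group, and in CDC42EP3 in every group except 1 h. The likeness thus includes differences between replicates within groups.

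Of the first adaptors at the receptor, GRB2 showed no call and SHC1 had calls in 1 of its 2 probe sets. GRB2 (215075_s_at) read 8.89 and 8.80 in ITGB4-transduced cells, 8.92 and 9.02 in untreated cells, 9.29 and 9.25 at 1 h, 9.02 and 9.43 at 6 h, and 8.63 and 9.27 at 24 h. Its arrays were above both untreated arrays at 1 h, by 0.30 (SE 0.20, adjusted p 0.347), and the arrays at 24 h lay on either side of them. The interval of the difference at 24 h from untreated cells ran from -0.45 to 0.41.

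SHC1 (chromosome 1, 154962298 to 154974376) was lowest at 6 h in probe set 214853_s_at, which read 10.36 and 10.32 there. It read 10.92 and 10.68 at 1 h and 10.65 and 10.92 at 24 h, with 10.89 and 10.69 in ITGB4-transduced cells and 10.54 and 10.51 in untreated cells. Both 6 h arrays were below all 8 other arrays. The difference of 6 h from 1 h was -0.46 (SE 0.14, adjusted p 0.0426), and that of 24 h from 6 h was 0.44 (SE 0.14, adjusted p 0.0466), in comparisons that share the 6 h arrays. Those between HGF-treated and untreated cells were 0.28, -0.18 and 0.26 at 1, 6 and 24 h and did not pass the test (adjusted p 0.228, 0.470 and 0.512). The other probe set, 201469_s_at, was at 9.25 and 9.02 at 1 h, 9.03 and 9.08 at 6 h, and 9.21 and 9.22 at 24 h, and its differences between 6 and 1 h and between 24 and 6 h were -0.08 and 0.16 (adjusted p 0.671 and 0.394). Without the filter on low values, the adjusted p of 214853_s_at was 0.0556 for 6 h against 1 h and 0.0693 for 24 h against 6 h. The call of 6 h against 1 h was also lost without either untreated array (0.0660 each), without replicate 1 at 1 h (0.217) and without either 6 h array (0.148 and 0.189). That of 24 h against 6 h was lost without either untreated array (0.0719 each), either 6 h array (0.152 and 0.211) or either 24 h array (0.0518 and 0.218). The gene table lists 2 pseudogenes of SHC1, and what they add to its probe sets was not tested.

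SOS1, the exchange factor that GRB2 brings to the receptor, had 2 probe sets and both were under the filter. Probe set 212777_at was the closest below it, with a second-highest value of 7.24, and GAB1 207112_s_at was the closest above it, with 7.38. SOS1 212780_at read 7.44 and 6.56 in ITGB4-transduced cells, 6.58 and 6.55 at 1 h, 7.03 and 6.88 at 6 h and 6.44 and 6.31 at 24 h, against 6.86 and 6.85 in untreated cells. Its arrays were thus below both untreated arrays at 1 h and 24 h and above both at 6 h, at values where background weighs on the signal. In 212777_at the arrays at 24 h, at 6.87 and 6.58, overlapped those of untreated cells, at 7.24 and 6.83.

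The scaffolds differed from each other in what could be measured. GAB2 (203853_s_at, chromosome 11, 78215293 to 78417820) read 10.07 and 10.20 at 24 h, against 9.51 and 9.62 at 6 h. The difference was 0.57 (SE 0.14, 95% interval 0.27 to 0.87, adjusted p 0.0154), which is 1.49-fold. The 2 arrays at 6 h were the lowest of all 10, since GAB2 read 9.72 and 9.84 in ITGB4-transduced cells, 9.84 and 9.91 in untreated cells, and 10.09 and 9.77 at 1 h. At 6 h it was 0.31 below untreated cells (SE 0.14, adjusted p 0.2) and 0.37 below 1 h (SE 0.14, adjusted p 0.0804), and at 24 h it was 0.26 above untreated cells (SE 0.14, adjusted p 0.491). Only the step between 6 and 24 h passed the test. That call was lost without replicate 1 or 2 at 6 h (adjusted p 0.105 and 0.0717) and without replicate 2 at 24 h (0.0709), with differences from 0.51 to 0.63.

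GAB1 (207112_s_at) passed the filter on 3 arrays, and on both arrays of a group only in ITGB4-transduced cells. It read 7.40 and 7.38 there, and 7.33 and 6.99 in untreated cells. With HGF it read 7.16 and 7.17 at 1 h, 6.92 and 6.86 at 6 h, and 7.15 and 7.09 at 24 h. As with GAB2, both 6 h arrays were the lowest of the 10, but their difference of -0.27 from untreated cells (SE 0.13, adjusted p 0.250) and that of 0.22 between 24 and 6 h (adjusted p 0.252) did not pass the test. GAB1 214987_at was under the filter, between 6.13 and 6.65 on all arrays.

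PTPN11, the phosphatase that the scaffolds carry (chromosome 12, 112418947 to 112509918), had 5 probe sets, 3 of them kept. In 212610_at it read 9.51 and 9.53 at 1 h, against 10.16 and 10.21 in untreated cells. The difference was -0.66 (SE 0.14, 95% interval -0.98 to -0.35, adjusted p 0.0293). At 6 h it read 10.17 and 9.99 and at 24 h 10.23 and 9.83, while ITGB4-transduced cells read 10.39 and 10.29. Both 1 h arrays were below all 8 others. The difference of 6 h from 1 h was 0.56 (SE 0.14, adjusted p 0.0228), in a comparison that shares the 1 h arrays with the call against untreated cells. That of 24 h from 1 h was 0.51 (adjusted p 0.160), and those of 6 and 24 h from untreated cells were -0.10 and -0.16 (adjusted p 0.734 and 0.679).

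The other kept probe sets of PTPN11 were also lowest at 1 h. Probe set 209896_s_at read 8.72 and 9.09 at 1 h, against 9.34 and 9.24 in untreated cells, a difference of -0.38 (SE 0.18, adjusted p 0.213). Probe set 209895_at read 8.00 and 8.12 at 1 h, against 8.45 and 8.39 in untreated cells, a difference of -0.36 (SE 0.13, adjusted p 0.113). In both, the 1 h arrays did not overlap the untreated arrays, and neither passed the test. The mean of the 3 probe sets was 0.47 lower at 1 h than in untreated cells (adjusted p 0.0698) and 0.40 higher at 6 h than at 1 h (adjusted p 0.0696). The call of 212610_at at 1 h was lost without either untreated array (adjusted p 0.124 and 0.187), either 1 h array (0.162 and 0.0531) or either 6 h array (0.0502 each), and its difference stayed between -0.69 and -0.64. The call of 6 h against 1 h was lost without either 1 h array (0.102 and 0.0553) or either 6 h array (0.152 and 0.0804). Of the probe sets under the filter, 205868_s_at read 6.16 and 6.37 at 1 h, against 6.99 and 6.50 in untreated cells, and 205867_at read 6.55 and 6.38 at 1 h, against 6.56 and 6.40 in untreated cells, where the arrays overlapped.

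In ITGB4-transduced cells all 5 probe sets of PTPN11 had both arrays above both untreated arrays, and 0 of the 3 kept were called. Such separation upward occurred in 17% of all kept probe sets. The 5 are probe sets of 1 gene on the same arrays and not separate observations (209896_s_at and 209895_at correlated at r = 0.97). Probe set 209896_s_at read 10.13 and 9.84 in ITGB4-transduced cells, against 9.34 and 9.24 in untreated cells, a difference of 0.70 (SE 0.18, 95% interval 0.29 to 1.10, adjusted p 0.356). Probe set 209895_at read 8.98 and 8.85, against 8.45 and 8.39 in untreated cells, a difference of 0.49 (SE 0.13, 95% interval 0.21 to 0.78, adjusted p 0.348). The difference of 212610_at was smaller, at 0.16 (SE 0.14, adjusted p 0.987), so that the probe set with the call at 1 h was the one that differed least here. Those under the filter read 7.48 and 7.02 (205868_s_at) and 7.41 and 7.05 (205867_at) in ITGB4-transduced cells, against 6.99 and 6.50, and 6.56 and 6.40, in untreated cells. The gene table lists 5 pseudogenes of PTPN11, whose share in the signal of its probe sets was not tested.

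**Figure D2:**
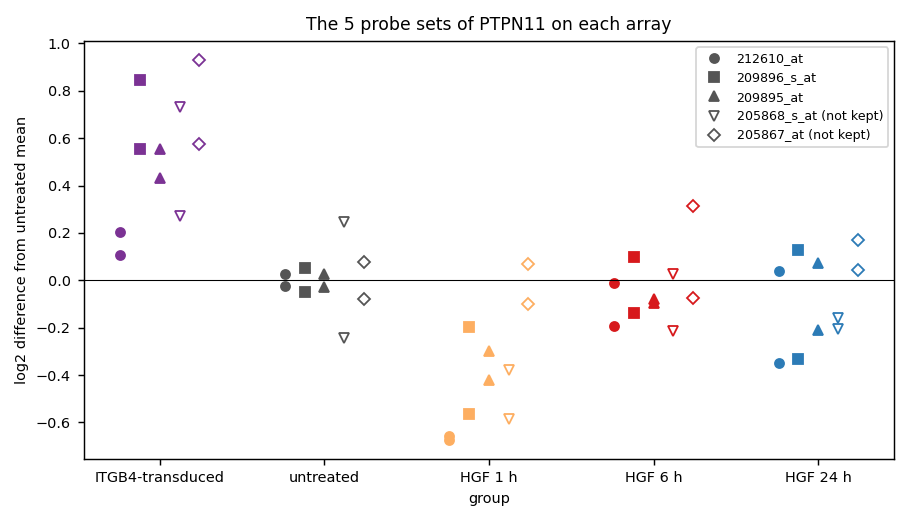
Log2 difference of each array from the untreated mean of the same probe set (vertical axis), for the 5 probe sets of PTPN11 by group (horizontal axis), with ITGB4-transduced cells left of untreated cells. Filled symbols are the 3 kept probe sets and open symbols the 2 under the filter. All ITGB4 arrays lie above the untreated arrays of the same probe set, and the filled symbols at 1 h lie below them.

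CRKL, the adaptor toward RAP1, was at 8.95 and 8.81 in ITGB4-transduced cells, 8.56 and 8.81 in untreated cells, 8.72 and 9.03 at 1 h, 9.04 and 8.97 at 6 h, and 8.79 and 8.97 at 24 h (212180_at). Its largest difference from untreated cells was 0.32 at 6 h (SE 0.14, adjusted p 0.207), where the arrays did not overlap. Its second probe set, 206184_at, was under the filter, between 6.33 and 7.04. CBL, the ubiquitin ligase of the receptor, had 1 probe set (206607_at), which was under the filter. It read 6.33 and 6.47 in ITGB4-transduced cells, 6.10 and 6.05 in untreated cells, 6.17 and 6.35 at 1 h, 6.17 and 6.15 at 6 h, and 6.31 and 6.07 at 24 h.

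**Figure D3:**
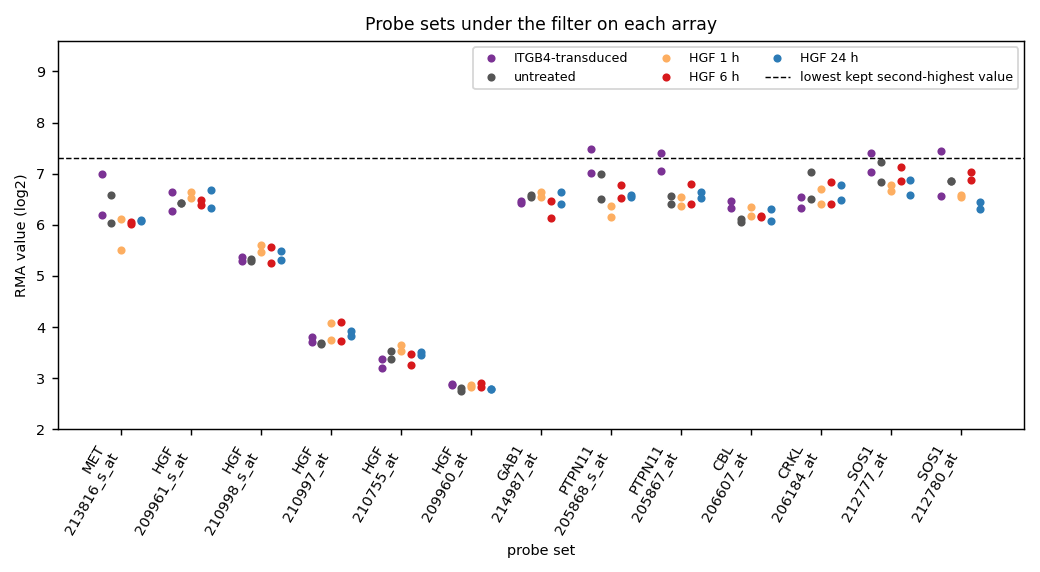
RMA values (log2, vertical axis) on each array of the 13 probe sets that did not pass the filter, with 1 column of points per group (ITGB4-transduced left of untreated, then 1, 6 and 24 h of HGF). The dashed line at 7.31 is the lowest second-highest value kept, and at most 1 array of a probe set lies over it. The arrays of all 5 HGF probe sets lie at or under 6.67.

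Set side by side, the kept probe sets gave the following counts against untreated cells. The shares called are by adjusted p, and are not a background for the counts at an unadjusted p under 0.05. With HGF for 1 h, 0 rose and 1 fell of 12, where 5.67% of all kept probe sets were called (0.592% rose and 5.08% fell). Of the 12, 3 lay with both arrays above and 6 with both below the untreated arrays, and such separation occurred in 34% and 25.9% of all kept probe sets. Those above were of GRB2 and SHC1 only, and those below of MET and PTPN11 only. With HGF for 6 h, 0 of 12 were called by limma (2 had an unadjusted p under 0.05, GAB2 lower and CRKL higher), where 6.22% of all were called. With HGF for 24 h, 0 of 12 were called by limma (3 had an unadjusted p under 0.05, 2 probe sets of MET lower and SHC1 201469_s_at higher), where 0% of all were called. In ITGB4-transduced cells 0 of 12 were called by limma, 3 had an unadjusted p under 0.05 (PTPN11 209896_s_at and 209895_at and SHC1 201469_s_at, all higher), and 0.0493% of all were called. There 7 of the 12 lay with both arrays above and 2 with both below the untreated arrays, against 17% and 17.7% of all kept probe sets. One of the 7 was GAB1, which passed the filter only through the ITGB4-transduced arrays, and without it 6 of 11 lay above and 2 below. The 6 were the kept probe sets of PTPN11 (3), SHC1 (2) and CRKL (1), and probe sets of the same gene are not separate members. In CRKL the nearest arrays of the 2 groups both read 8.81. SHC1 201469_s_at read 9.35 and 9.34 in ITGB4-transduced cells, against 8.83 and 9.01 in untreated cells (difference 0.42, SE 0.12, adjusted p 0.444). With 2 arrays in each group an exact two-sided permutation test cannot give a p under 0.333, so that every call rests on the spread shared across groups and probe sets.

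**Figure D4:**
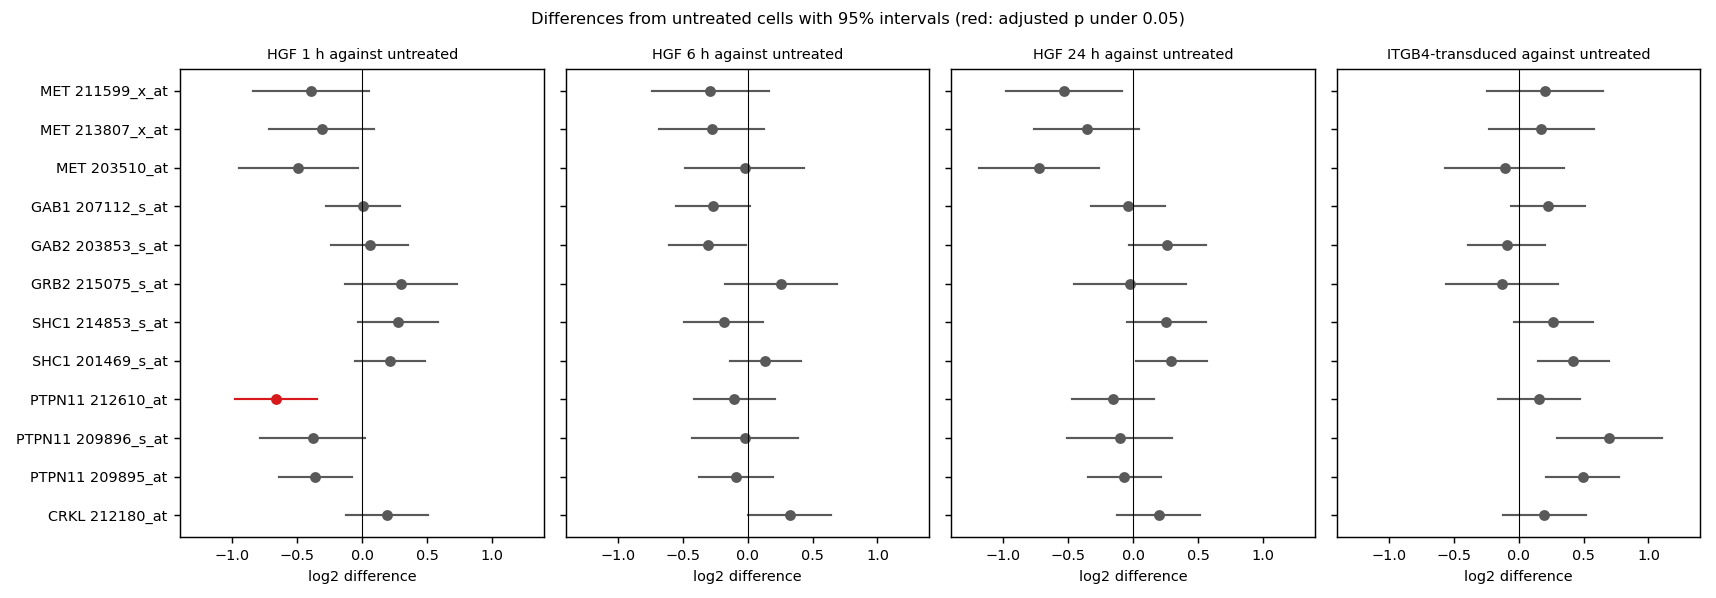
Log2 differences of the kept probe sets (horizontal axes, points with 95% intervals from limma) of HGF at 1, 6 and 24 h and of ITGB4-transduced cells from untreated cells. Red marks the single call, PTPN11 212610_at at 1 h (-0.66), and right of the vertical line is higher than in untreated cells.

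Between HGF time points, 1 of the 12 rose and 1 fell at 6 h against 1 h, where 18.3% of all kept probe sets were called (11.9% rose and 6.42% fell). At 24 h against 6 h, 2 rose and 1 fell, where 19.5% were called (6.96% rose and 12.6% fell). At 24 h against 1 h, 0 were called by limma (2 had an unadjusted p under 0.05, both of PTPN11 and higher), where 0.00986% were called. The median difference of the 12 probe sets was -0.15 at 1 h, -0.09 at 6 h, -0.06 at 24 h and 0.20 in ITGB4-transduced cells, each from untreated cells, and that of all kept probe sets was 0.06, 0.01, 0.00 and 0.00. Without GAB1, which passed the filter on both arrays of a group only in ITGB4-transduced cells, the medians were -0.31, -0.09, -0.07 and 0.20. MET and PTPN11 have 3 of the 12 probe sets each, so that these medians are not of separate genes. The replicates were least alike at 24 h, where the median difference between the arrays of a group over these 12 probe sets was 0.33, against 0.19 at 1 h and 0.12 at 6 h.

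**Figure D5:**
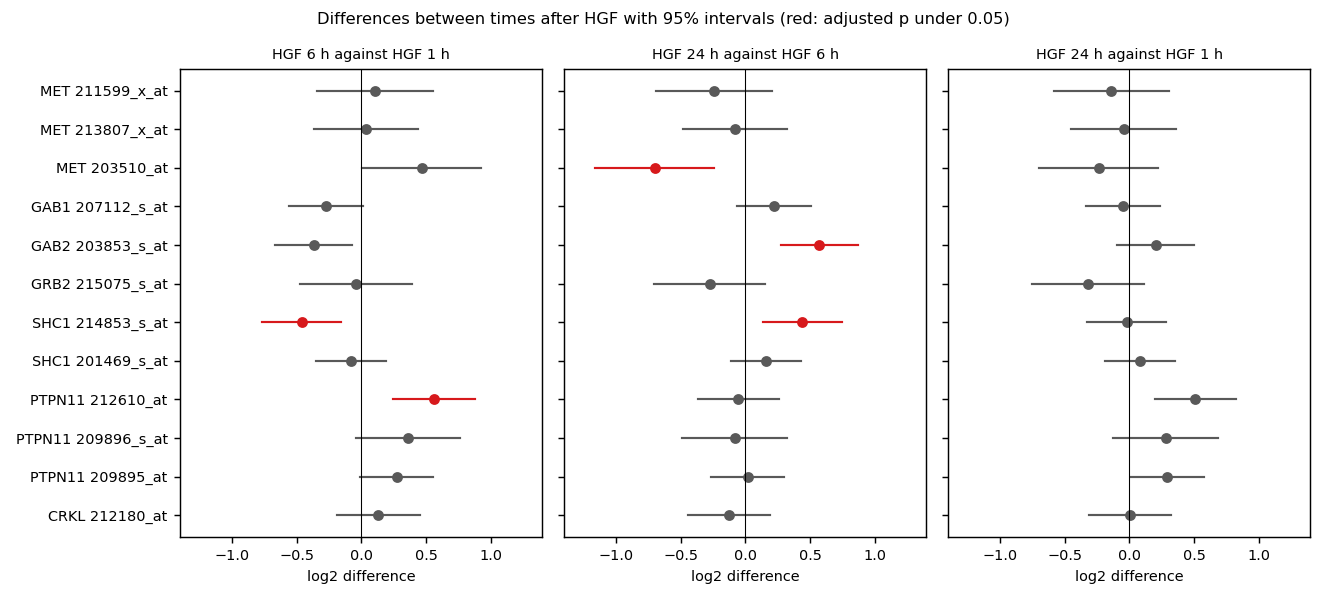
Log2 differences of the kept probe sets (horizontal axes, points with 95% intervals from limma) between times after HGF, the later time minus the earlier. Red marks calls, which are SHC1 214853_s_at (-0.46) and PTPN11 212610_at (0.56) at 6 h against 1 h, and MET 203510_at (-0.70), GAB2 (0.57) and SHC1 214853_s_at (0.44) at 24 h against 6 h.

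The wider MET pathway was followed with a list of 82 genes, of which 43 had a kept probe set. It held partners of the receptor and proteases of the ligand, further adaptors, effectors, members of the RAS and MAP kinase cascades, and proteins that end the signal. With HGF for 1 h, 0 rose and 2 fell, against 5.87% of all genes called (0.706% rose and 5.16% fell). USP8, a deubiquitinase of endosomes, read 6.68 and 6.52 at 1 h, against 7.39 and 7.40 in untreated cells (difference -0.80, SE 0.17, adjusted p 0.0273). RAP1A, the GTPase downstream of CRKL, read 8.94 and 8.97 at 1 h, against 9.40 and 9.46 in untreated cells (difference -0.48, SE 0.12, adjusted p 0.0403). With HGF for 6 h, 2 rose and 2 fell, against 6.47% of all genes called (3.75% rose and 2.72% fell). Higher were PXN, an adaptor of focal adhesions (0.60, adjusted p 0.0178), and HRAS, a target of SOS1 (0.72, adjusted p 0.0353). Lower were SH2B2, an adaptor of receptor kinases (-0.65, adjusted p 0.0411), and EPS15, a protein of clathrin-coated pits (-0.52, adjusted p 0.0452). With HGF for 24 h and in ITGB4-transduced cells 0 were called by limma, against 0% and 0.0157% of all genes called. At an unadjusted p under 0.05 there were 5 and 4 genes, and the share of all genes at that threshold is not given.

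At 6 h against 1 h, a comparison of the list that was added after its values had been seen, 7 genes were called, of which 6 rose and 1 fell, against 19.1% of all genes called (11.7% rose and 7.44% fell). The pair that was lower at 1 h rose, USP8 with 7.28 and 7.09 at 6 h, against 6.68 and 6.52 at 1 h (difference 0.59, SE 0.17, adjusted p 0.0340), and RAP1A with 9.39 and 9.37 at 6 h, against 8.94 and 8.97 at 1 h (difference 0.42, SE 0.12, adjusted p 0.0300), in comparisons that share the 1 h arrays. CDC42, a GTPase of the actin skeleton (0.60, adjusted p 0.0164), PXN (0.44, adjusted p 0.0259), PIK3R1, the regulatory subunit of phosphatidylinositol 3-kinase (0.77, adjusted p 0.0266), and HRAS (0.58, adjusted p 0.0395) also rose, and SH2B2 fell by 0.71 (adjusted p 0.0156). CDC42 and PIK3R1 each had 2 kept probe sets, of which only 1 was called here. The 1 h arrays of PIK3R1 lay apart, at 7.08 and 7.75. The count of 7 became 4 without either untreated array, 0 and 3 without replicates 1 and 2 at 1 h, and 1 and 0 without replicates 1 and 2 at 6 h.

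At 24 h against 6 h, 9 genes of the list were called, of which 5 rose and 4 fell, against 19.8% of all genes called (7.43% rose and 12.4% fell). CBLB, the paralog of CBL, read 8.24 and 8.08 at 24 h, against 7.57 and 7.00 at 6 h (difference 0.88, SE 0.19, adjusted p 0.0103). SH2B2 (0.74, adjusted p 0.0115), PLXNB1, a semaphorin receptor that associates with MET (0.49, adjusted p 0.0328), and PLAT, a plasminogen activator (0.46, adjusted p 0.0421), also rose. HRAS read 7.36 and 7.83 at 24 h, against 8.29 and 8.59 at 6 h (difference -0.85, SE 0.17, adjusted p 0.00740). CDC42 (-0.49, adjusted p 0.0316), PXN (-0.38, adjusted p 0.0419) and PIK3R1 (-0.66, adjusted p 0.0434), also fell. Of the 2 kept probe sets of PIK3R1 only 1 was called, while both of CDC42 and both of PXN were. Thus PXN and HRAS, higher at 6 h than in untreated cells, were lower at 24 h than at 6 h, and SH2B2 ran the other way, in comparisons that share the 6 h arrays. Sizes are not exact for USP8 at 1 and 6 h and for SH2B2, CBLB and PLXNB1 at 6 h, whose means there were under 7.31. The count of 2 at 1 h became 0 without either untreated array or replicate 1 at 1 h, and 1 without replicate 2 at 1 h or either 6 h array. The count of 4 at 6 h became 0 without either untreated array or replicate 2 at 6 h, and 1 without replicate 1 at 6 h. The count of 9 at 24 h against 6 h became 3 without either untreated array, 0 and 5 without replicates 2 and 1 at 6 h, and 1 and 5 without replicates 1 and 2 at 24 h.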

How the data were processed

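RNA of the 10 cultures was hybridised to Affymetrix hgu133a arrays. The deposited values are log2 values that the authors summarised and normalised between arrays with RMA, from the affy package, and they were tested as deposited. Low genes are limited by signal near background, and all differences by the number of arrays. Following the study's rule of detection in at least 2 samples, probe sets were ranked by their second-highest value, controls left out, and the first 10137 were kept, in place of presence calls, which were not used here. Gene symbols came from the platform annotation, and gene positions and the promoters (RefSeq) from tables of GRCh38.p14, in which 7 of the 10 genes had a promoter.

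The model had a mean for each group and was fitted to the 10 arrays with limma 3.58.1 in R 4.3.3 (5 residual degrees of freedom, prior of 5.92 degrees of freedom with an SD of 0.144), with p-values adjusted for each comparison over all kept probe sets. The program was tested on simulated data. The genes and lists were chosen with earlier results of these data known. Named were all probe sets of the 10 genes, ITGB4, at most 4 called pathway genes each way by adjusted p (all 7 at 6 h against 1 h, a comparison added after seeing the data), and the 5 genes most like MET. A pathway gene stands for its brightest kept probe set. Alternatives were no filter, a filter on the mean, median centring, cyclic loess, gene means, fits without 1 array, a block on the replicate number, a spread from only the groups compared, a trended robust prior, joint adjustment, a fold threshold of 1.5 and the Mulcom statistic. The spread without the ITGB4 arrays was chosen after seeing the data. The Illumina arrays of the same RNA were not analysed here.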

Additional observations from a re-analysis of the deposited data

Results flagged for a closer look

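The following values differ between time points after HGF by the limma test of the difference itself. SHC1 214853_s_at was 0.46 lower at 6 h than at 1 h (log2 difference -0.46, adjusted p 0.0426). PTPN11 212610_at was higher at 6 h than at 1 h, by 0.56 (adjusted p 0.0228). MET 203510_at had a log2 difference of -0.70 between 24 and 6 h (adjusted p 0.0384). GAB2 203853_s_at was higher at 24 h than at 6 h, by 0.57 (adjusted p 0.0154). SHC1 214853_s_at was higher at 24 h than at 6 h, by 0.44 (adjusted p 0.0466). Its fall and rise share the 6 h arrays, and the rise of PTPN11 shares the 1 h arrays with its call against untreated cells, so that these are not independent. Groups of 2 arrays are too small to look for single outlying arrays.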

How the results depend on the processing

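Of 1764 values of single differences under alternatives, 45 had another sign than the value reported, none of them a call, 40 lost a call and 4 gained one. Of the member probe sets, 0 were called at 6 h, at 24 h, in ITGB4-transduced cells and at 24 h against 1 h under the alternatives run, the fits without 1 array (0 to 0) included, and 0 by the Mulcom statistic at 6 h, at 24 h and in ITGB4-transduced cells. With the mean of the probe sets of each gene, the count of members fell to 0 at 1 h, to 0 at 6 h against 1 h and to 1 (GAB2) at 24 h against 6 h. GAB2 has 1 probe set, so that its difference was the same under that setting. For any difference the count under that setting was 1 gene, where the 3 reported are probe sets of 1 gene, PTPN11, so that these counts are of unlike units. The count of pathway genes at 1 h was 4. Without the filter, 1 member was called at 6 h against 1 h and 5 for any difference, all of PTPN11, and median centring and cyclic loess gave 5 each for any difference. A threshold of at least 1.5-fold left 0 members at 6 h against 1 h and 1 (MET) at 24 h against 6 h, with 1 pathway gene at 1 h, 4 at 6 h against 1 h and 4 at 24 h against 6 h. With the spread of the 2 compared groups, 1 pathway gene was called at 1 h and 8 at 6 h, and with joint adjustment 1 and 1. Without 1 array, members called ranged from 0 to 1 at 1 h, 0 to 2 at 6 h against 1 h, 0 to 3 at 24 h against 6 h and 1 to 5 for any difference, and pathway genes from 0 to 3 at 1 h, 0 to 4 at 6 h, 0 to 8 at 6 h against 1 h and 0 to 10 at 24 h against 6 h. Where a call was lost, the cause was not tested beyond the fewer arrays of such fits. Arrays of the same number correlated in their deviations from -0.14 to 0.46, with 8 of 10 pairs of groups over 0.1. Since not all 10 were over 0.1, the numbers were not taken to pair the samples, and the block is given as an alternative only. With the replicate number as a block, 6 member probe sets were called for any difference, the added ones being the 3 kept of MET, and called probe sets on the whole array went from 575 to 794 at 1 h and from 631 to 903 at 6 h. At 6 h against 1 h the block added a call of MET 203510_at (0.47, adjusted p 0.0439, against 0.137 without it), which made 3 in place of 2. The block changed no other call of a member probe set between 2 groups. The mean correlation of the deviations of a group with those of the other groups was above 0 in every group. It ran from 0.03 at 1 h of HGF to 0.28 in untreated cells. The Mulcom statistic called PTPN11 212610_at at 1 h (936 probe sets in all), and was not run between time points. Genes near 7.31 and below, such as HGF, CBL and SOS1, are limited by their signal over background.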
